A study of Mus musculus with 7 samples.

Results

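The transcripts described here encode the proteins of the cytosolic ribosome, the particle that translates messenger RNA. They were taken by symbol from a table of 28233 genes. A symbol had to read Rpl, Rps or Rplp followed by a number and at most 1 letter, and symbols of pseudogenes (154 ending in -ps) and of the S6 kinases were left out. The rule found 81 genes, 47 of the large subunit, 31 of the small subunit and 3 of the stalk, and used no measured value. Of the 81, 76 averaged 50 TPM or more over the tumours and are called the abundant members. The other 5 (Rpl3l, Rpl6l, Rpl32l, Rpl39l and Rps4l) are low paralogs of abundant members, with means of 0.259 to 6.74 TPM.

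The study sequenced polyadenylated RNA of 7 whole tumours that had grown from B16mhgp100 cells (B16mghp100 in the descriptions of the samples), a mouse melanoma line derived from B16, implanted subcutaneously in C57BL/6 animals. Over-expression of Cr1l marked 4 of them (Cr1l 1 to Cr1l 4); the gene encodes the complement regulator Crry. The other 3 (Vec 5, 6 and 7) carried the vector. Mice of both groups had received an antibody against the inhibitory receptor PD-1 at 200 µg per dose. Dosing began on day 10 at 2 per week and ended after 4, and tumours were taken 1 day later. No tumour without the antibody was included, so every difference below is one under that treatment. The labels name neither mice nor cell clones, so p-values measure only the spread between these samples, and they do not give the age or sex of the mice or the promoter that drove Cr1l. Unlike Vec 5, both Vec 6 and Vec 7 are titled with an extra number that the labels leave unexplained.

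A ribosome is built in the nucleolus from ribosomal RNA and its proteins, which join as a small subunit that decodes the messenger and a large subunit that forms peptide bonds. The genes of these proteins are among the most strongly transcribed of a growing cell. Their messengers typically begin with a cytosine and a run of pyrimidines, called a terminal oligopyrimidine (TOP) start, through which mTOR and the RNA-binding protein Larp1 regulate their translation. Growth, the oncogene Myc and mTOR set how much of this machinery a tumour cell makes.

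The pyrimidine run at the transcript start is the feature these messengers are known to share. The sequences below show the longest run found around the annotated start in members on which the results turn. Of the 81 members, 59 had a transcript start in RefSeq (build GRCm38.p6). Each window runs 5′ to 3′ over 30 bases, 15 before and 15 after the annotated start, with its longest unbroken run of C and T in capitals. Rpl13 and Rpl28 are members with large negative differences between the groups, Rps2 is the small subunit member at the mRNA entry channel, Rplp2 and Rps21 had positive differences, Rps6 is the substrate of the S6 kinases, and Rpl7a has the longest run among those named here.
Rpl13: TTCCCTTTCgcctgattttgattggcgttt
Rpl28: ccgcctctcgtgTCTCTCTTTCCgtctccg
Rps2: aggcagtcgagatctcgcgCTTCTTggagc
Rplp2: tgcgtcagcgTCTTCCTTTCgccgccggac
Rps21: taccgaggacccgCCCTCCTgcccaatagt
Rps6: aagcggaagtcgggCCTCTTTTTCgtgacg
Rpl7a: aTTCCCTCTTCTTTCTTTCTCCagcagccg

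The windows lie at chr8:123102335-123102364 (plus strand) for Rpl13, chr7:4792950-4792979 (plus strand) for Rpl28, chr17:24720048-24720077 (plus strand) for Rps2, chr7:141447636-141447665 (plus strand) for Rplp2, chr2:180257364-180257393 (plus strand) for Rps21, chr4:86857353-86857382 (minus strand) for Rps6 and chr2:26910792-26910821 (plus strand) for Rpl7a. A run of at least 5 pyrimidines stood on the sense strand of 42 of the 59 members (71.2%), against 12823 of 27025 genes of the table with a RefSeq start (47.4%). A run of at least 8 stood in 25 of 59 members (42.4%), against 3205 of the 27025 genes (11.9%). The run did not sit at 1 fixed distance from the annotated start. In some members, such as Rpl13, it lay wholly before that start, outside the annotated messenger. A run in this window is therefore not shown to be a TOP start, and members without a long run are not thereby shown to lack one. Abundant members with a run of at least 8 (24 genes) and with a shorter one (32 genes) had the same median difference between the groups, -0.13 on the log2(TPM + 1) scale.

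Expression is given as TPM, a relative abundance of transcripts scaled for transcript length, which keeps no read depth. The number of reads is therefore unknown here and no counting error can be given. TPM summed to between 993520 and 996031 per tumour, and 13634 to 15352 genes reached 1 TPM. The over-expressed gene, Cr1l, was at 76.4, 78.6, 77.9 and 83.6 TPM in the Cr1l tumours, against 52.4, 46.3 and 54.9 TPM in the Vec tumours, so each tumour lay on the side of its label. All 10 melanocyte markers fixed for the check of the label were expressed in every tumour, summing to 22920, 21250, 10310 and 11830 TPM in the Cr1l tumours, against 21730, 14960 and 23070 TPM in the Vec tumours. The make-up of the tumours was uneven in both groups. The 18 macrophage markers summed to 2515, 2898, 9024 and 8315 TPM in the Cr1l tumours, against 3950, 2816 and 3454 TPM in the Vec tumours, and the red cell markers (7 in the table) to 106.0 to 388.5 TPM in the Cr1l tumours, against 416.5, 41290 and 9695 TPM in the Vec tumours. The 10 fibroblast markers summed to 789.9, 1175, 6279 and 4975 TPM in the Cr1l tumours, against 1331, 578.1 and 167.7 TPM in the Vec tumours. All 10 had higher means of log2(TPM + 1) in Cr1l tumours, but the groups overlapped for each of them. In TPM, the mean of Postn was 86.6 in Cr1l tumours, against 88.9 in Vec tumours. The 10 B and plasma cell markers summed to 422.5, 172.8, 1313 and 488.7 TPM in the Cr1l tumours, against 34.9, 9.56 and 14.5 TPM in the Vec tumours, without overlap. The immunoglobulin genes Igkc and Ighm made up most of these sums, and only 6 of the 10 markers averaged 1 TPM or more. Cd79b, among the 6, overlapped between the groups. Ms4a1, a defining marker, was not among the 6 and was at 0 in all 3 Vec tumours. In bulk tissue, fewer cells of a type and less RNA per cell cannot be told apart.

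In the Cr1l tumours, ribosomal protein transcripts took 13.5%, 14.3%, 13.0% and 12.1% of all TPM, against 13.7%, 16.01% and 14.5% in the Vec tumours. The groups overlapped, since Cr1l 2 lay above Vec 5. The means were 13.2% ± 0.927 (SD, n = 4) in Cr1l tumours and 14.8% ± 1.16 (SD, n = 3) in Vec tumours, a log2 ratio of -0.16 beside a spread between tumours of the same group of 0.106 (pooled SD, log2 scale). No test was made on this sum, because the genes were grouped with results of these data known. Members filled 41 to 47 of the 100 most abundant genes of a Cr1l tumour and 44 to 48 of those of a Vec tumour.

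The 2 subunits did not contribute equally. The large subunit took 7.27%, 7.56%, 6.70% and 6.22% of TPM in the Cr1l tumours, against 7.39%, 8.83% and 8.11% in the Vec tumours. The small subunit took 5.41%, 5.86%, 5.44% and 5.08% in the Cr1l tumours, against 5.44%, 6.34% and 5.56% in the Vec tumours. The ratio of the large to the small sum was 1.34, 1.29, 1.23 and 1.23 in the Cr1l tumours, against 1.36, 1.39 and 1.46 in the Vec tumours. Every Cr1l tumour lay below every Vec tumour in this ratio, although Cr1l 1 and Vec 5 were close. The means were 1.27 ± 0.0557 (SD, n = 4) in Cr1l tumours and 1.40 ± 0.0519 (SD, n = 3) in Vec tumours, a log2 ratio of -0.14, which is larger than the pooled SD of 0.0589. The ratio kept this direction when any single tumour was left out (-0.17 to -0.11), without Vec 6 and Vec 7 (-0.09) and without Cr1l 3 and Cr1l 4 (-0.09). The stalk genes took 0.836%, 0.875%, 0.807% and 0.799% in the Cr1l tumours, against 0.889%, 0.848% and 0.866% in the Vec tumours, with the groups overlapping.

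**Figure D1:**
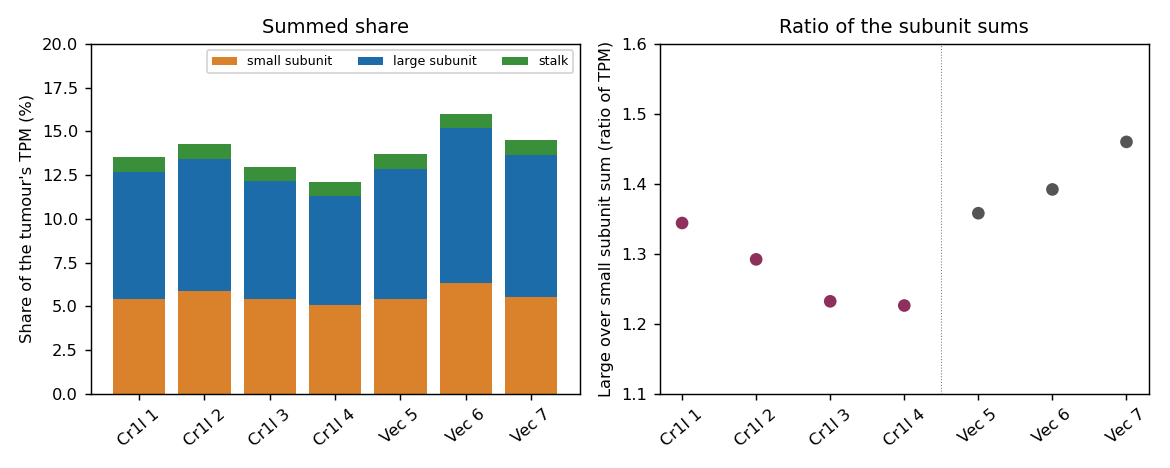
Left, bars of the share of TPM (%) taken by small subunit, large subunit and stalk transcripts in each tumour; right, points of the ratio of the large to the small subunit sum (axis from 1.1). The ratio was 1.23 to 1.34 in the 4 Cr1l tumours and 1.36 to 1.46 in the 3 Vec tumours.

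Single tumours weighed heavily on these sums. Cr1l 4 had the lowest value of all 7 tumours for 46 of the 76 abundant members, and Vec 6 had the highest for 38 of them. The median deviation of the abundant members from their own mean over the tumours was -0.03, 0.04, -0.07 and -0.17 on the log2(TPM + 1) scale in the Cr1l tumours, against -0.02, 0.16 and 0.05 in the Vec tumours. Cr1l 1, Cr1l 2, Vec 5 and Vec 7 thus lay close together, while Cr1l 4 and Vec 6 stood at the ends. Other transcripts stood out in the same tumours. Transcripts of mitochondrial genes made up 7.502%, 7.60%, 8.54% and 11.7% of TPM in the Cr1l tumours, against 4.49%, 7.30% and 3.58% in the Vec tumours, and globin transcripts took at most 0.0390% in a Cr1l tumour and 0.0417%, 4.14% and 0.973% in the Vec tumours. With both classes taken out before scaling, the ribosomal share was 14.6%, 15.5%, 14.2% and 13.7% in the Cr1l tumours, against 14.4%, 18.1% and 15.2% in the Vec tumours, so the order of the group means stayed. The part of the macrophage, fibroblast, B cell, melanocyte and red cell content in the ribosomal share was not tested.

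**Figure D2:**
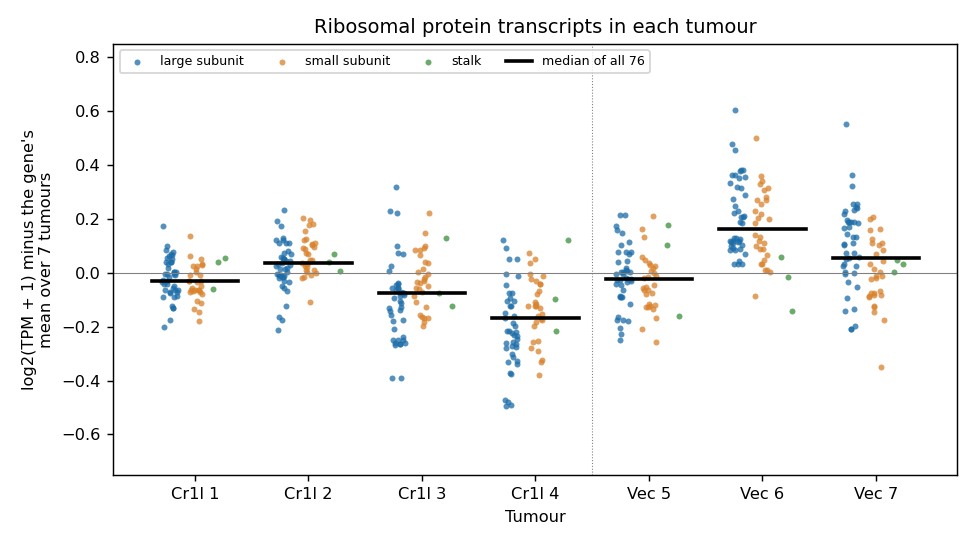
Each point is 1 of the 76 abundant members, placed by its log2(TPM + 1) minus its own mean over the 7 tumours, with subunits by colour and the median as a bar. Medians ran from -0.17 in Cr1l 4 to 0.04 in Cr1l 2, and from -0.02 in Vec 5 to 0.16 in Vec 6.

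Gene by gene, most members had a small negative difference, and none passed over all genes. In limma on log2(TPM + 1), 80 of the 81 members reached the mean of 1 TPM needed for the test (Rpl32l did not), and 64 had lower means in Cr1l tumours and 16 higher means. The share with a lower mean was 80.0%, against 44.6% of the 14954 genes tested. The median difference of the members was -0.13 (quartiles -0.25 and -0.02), against 0.05 for all genes tested. At an adjusted p under 0.05 limma called 0 members, where it called 2 of the 14954 genes (0.0134%). At an unadjusted p under 0.05, 5 members were lower (6.25%) and 0 higher, where 6.07% of all genes were lower and 9.49% higher, so the count of lower members was near the background. With median-of-ratios scaling, which gave 9.45% of all genes lower and 7.84% higher, 10 members were lower and 0 higher. All 4 Cr1l tumours lay below all 3 Vec tumours for 13 members (16.2%), against 6.67% of all genes, and above them for 1 member, Rplp2, against 9.29% of all genes.

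Other genes at these levels also had mostly lower means. Among 172 other genes with a mean at or above the lowest abundant member (543.5 TPM for Rpl36a), 110 had lower means in Cr1l tumours (64.0%), with a median difference of -0.11, and 25 did not overlap downward (14.5%). Of the 76 abundant members, 81.6% had lower means, a larger share than the 64.0%, while their median of -0.13 and the 17.1% without overlap downward were close to those of the other genes. No test was made of these differences. Without Vec 6 and Vec 7 the median of the members was -0.031, close to the -0.028 of all genes tested in that fit. There 23.8% of the members did not overlap downward, against 26.4% of all genes. Leaving out Vec 5 gave 34 members without overlap downward and leaving out Cr1l 2 gave 23, against 13 with all tumours, and the background was then 9.62% and 8.31%.

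Within the abundant members, 37 of the 43 large subunit genes had lower means in Cr1l tumours, with a median difference of -0.18, and 11 did not overlap downward (25.6%). Of the 30 small subunit genes 23 had lower means, with a median of -0.07, and 2 did not overlap (6.67%, the share over all genes). All 5 members at an unadjusted p under 0.05 belonged to the large subunit. A difference below -0.2 was found in 19 large and 4 small subunit members. Over all genes tested the lower quartile of the difference was -0.19, close to that bound. Of the 76 abundant members, 31 lay within 1 standard error of 0, a share not counted over all genes. The difference between the subunits was not tested.

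**Figure D3:**
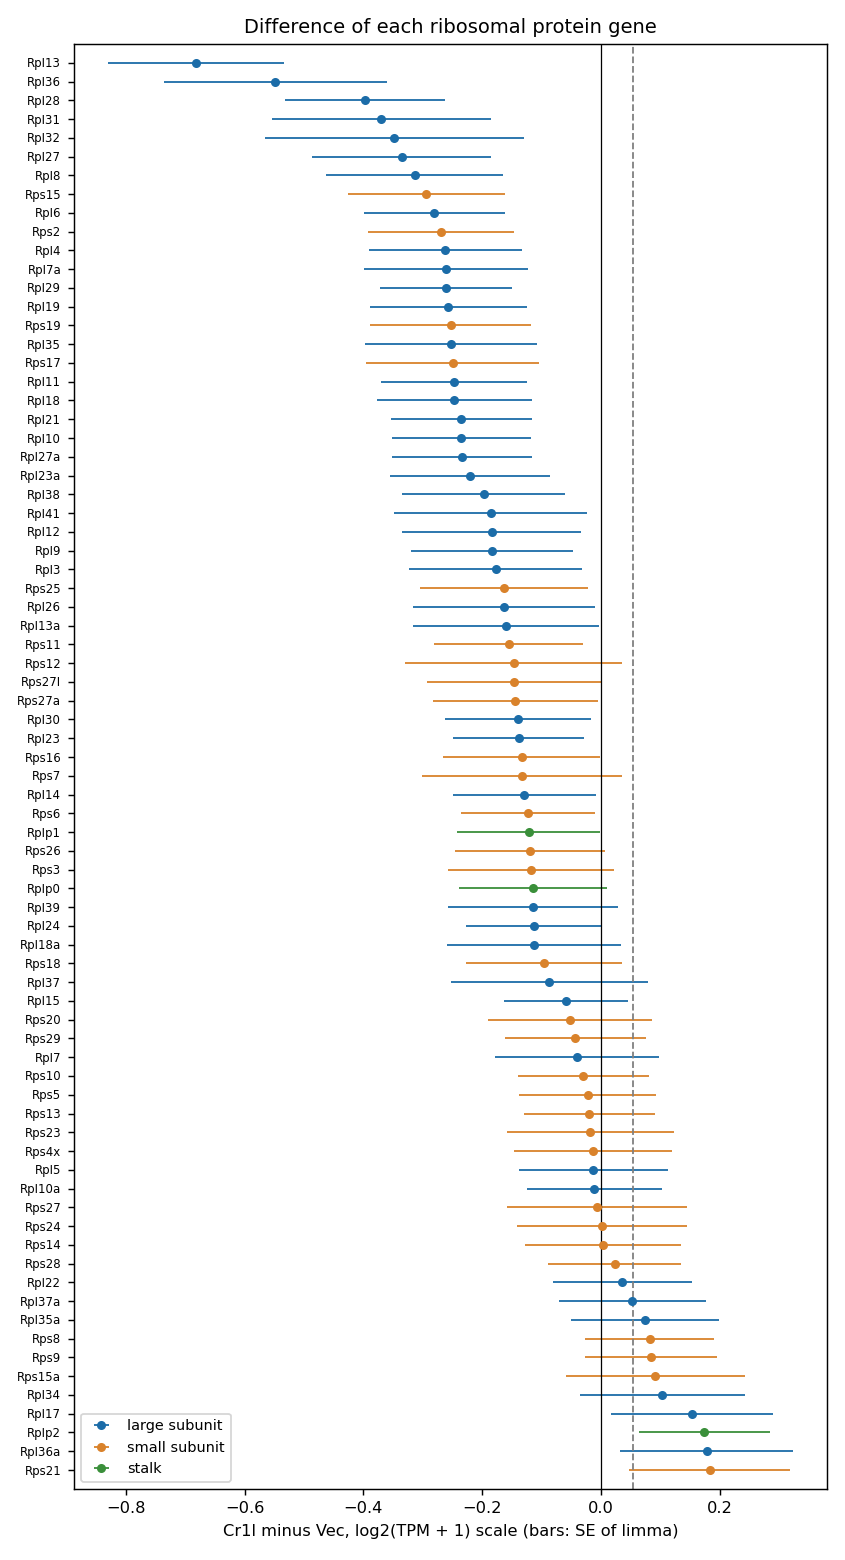
Difference of each of the 76 abundant members, as Cr1l minus Vec in log2(TPM + 1) units, with bars for the limma standard error; the dashed line marks the median of all genes tested, 0.05. Rpl13 (-0.68) and Rpl36 (-0.55) stand at the lower end and Rps21 (0.18) at the upper end.

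Rpl13, a protein of the large subunit whose human gene is mutated in a form of spondyloepimetaphyseal dysplasia, had the largest negative difference of the abundant members. Its level was 2349.7, 2329.9, 2256.6 and 1915.0 TPM in Cr1l 1 to Cr1l 4, against 3015.0, 3710.8 and 3963.9 TPM in Vec 5, Vec 6 and Vec 7. The lowest Vec tumour lay well above the highest Cr1l tumour, and Cr1l 4 and Vec 7 stood at the ends. The means were 2213 ± 203 TPM in Cr1l tumours (SD, n = 4) and 3563 ± 491 TPM in Vec tumours (SD, n = 3), a difference of -0.68 (SE 0.15) with an adjusted p of 0.151 by limma. Over the 35 ways to split the tumours, an exact permutation test reached p = 0.0286 (two-sided), which is the lowest value possible with 4 against 3. That value was reached by 8 of the 80 members tested (10.0%), against 9.34% of all genes, a share near the background. In the authors' deposited table Rpl13 fell by 0.76 in log2 units, with a standard error of 0.198 and an adjusted p of 0.00621, and it was the 1 member past 0.05 there, where 2.27% of all genes with an adjusted p were lower and 4.74% higher. Over the alternatives of the limma fit its difference ran from -0.80 to -0.45 and its adjusted p from 0.134 to 0.726.

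Rpl36 and Rpl28 followed. Rpl36, a large subunit protein, measured 3083.8, 3491.2, 2576.0 and 2431.6 TPM in the Cr1l tumours, against 3563.5, 5132.8 and 4028.1 TPM in the Vec tumours. Its groups did not overlap, but Cr1l 2 and Vec 5 differed by little, and the difference of -0.55 (SE 0.19) had an adjusted p of 0.259 by limma and an exact permutation p of 0.0571. Rpl28, a large subunit protein that animals have and budding yeast lacks, measured 1401.8, 1378.3, 1196.0 and 1139.1 TPM in the Cr1l tumours, against 1504.5, 1702.1 and 1845.8 TPM in the Vec tumours. Here too every Cr1l tumour was below every Vec tumour, with a difference of -0.40 (SE 0.14), an adjusted p of 0.258 by limma and an exact permutation p of 0.0286. Rpl6 had 1304.9, 1287.3, 1094.8 and 1117.3 TPM in the Cr1l tumours, against 1397.2, 1484.4 and 1483.3 TPM in the Vec tumours, and Rpl29, a small basic protein of the large subunit, had 1032.9, 1065.2, 951.9 and 946.6 TPM in the Cr1l tumours, against 1137.4, 1180.3 and 1273.4 TPM in the Vec tumours. Their differences of -0.28 and -0.26 were close to each other, the groups of neither gene overlapped, and both had an adjusted p of 0.317 by limma. The exact permutation p was 0.0571 for Rpl6 and 0.0286 for Rpl29.

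**Figure D4:**
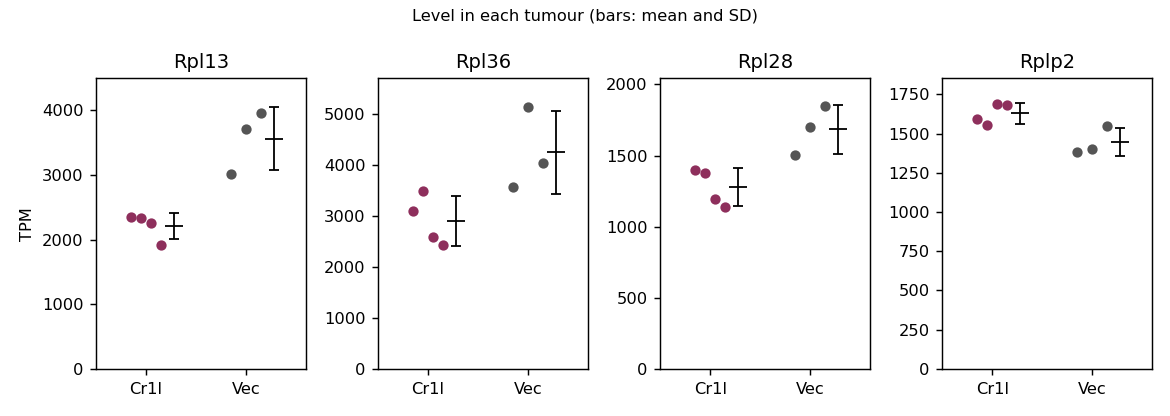
TPM of Rpl13, Rpl36, Rpl28 and Rplp2 in each of the 4 Cr1l and 3 Vec tumours (points), with the mean and SD of each group as bars and axes from 0. Rpl13 was at 1915.0 to 2349.7 TPM in Cr1l tumours and 3015.0 to 3963.9 TPM in Vec tumours, and Rplp2 was the 1 member with every Cr1l tumour above every Vec tumour.

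Other large subunit members had differences smaller than those of Rpl13, Rpl36 and Rpl28. Rpl10, which joins the subunit late in its assembly near the catalytic centre, had 2538.8, 2582.8, 2321.7 and 2227.4 TPM in the Cr1l tumours, against 2916.2, 2812.3 and 2794.3 TPM in the Vec tumours. Its groups did not overlap (-0.24). Rpl11, which with Rpl5 and 5S RNA can bind Mdm2 and thereby stabilise p53, had 1419.1, 1472.3, 1346.9 and 1275.9 TPM in the Cr1l tumours, against 1484.2, 1810.4 and 1626.1 TPM in the Vec tumours, again without overlap (-0.25). Rpl5, its partner, had 857.9, 965.5, 813.6 and 785.6 TPM in the Cr1l tumours, against 883.9, 929.0 and 776.1 TPM in the Vec tumours, with overlapping groups and a difference of -0.01 whose sign turned under several alternatives. Rpl27 (-0.34) had 2484.1, 2668.4, 2174.8 and 2080.1 TPM in the Cr1l tumours, against 2597.3, 3372.0 and 2940.6 TPM in the Vec tumours, and Rpl31 (-0.37), at the rim of the exit tunnel, had 3007.0, 3264.4, 2494.2 and 2137.3 TPM in the Cr1l tumours, against 2995.9, 3913.9 and 3585.2 TPM in the Vec tumours. In both, Cr1l 2 lay above Vec 5 and the groups overlapped. Of the other members without overlap, Rpl8 had a difference of -0.31, Rpl19 of -0.26, Rpl18 of -0.25 and Rpl27a of -0.23. None of the genes in this paragraph had an adjusted p under 0.05 by limma or in the authors' deposited table.

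In the small subunit, Rps15 and Rps2 were the 2 members whose groups did not overlap. Rps15, a protein of the head of the small subunit, had 2356.6, 2562.8, 2331.9 and 2098.9 TPM in the Cr1l tumours, against 2652.2, 3222.7 and 2734.6 TPM in the Vec tumours, a difference of -0.29 with an adjusted p of 0.332 by limma and an exact permutation p of 0.0571. Rps2, whose window is printed above, had 2347.3, 2414.5, 2114.0 and 2006.1 TPM in the Cr1l tumours, against 2778.8, 2551.5 and 2682.4 TPM in the Vec tumours. The groups came nearest at Cr1l 2 and Vec 6, and the difference was -0.27 with an adjusted p of 0.335 by limma and an exact permutation p of 0.0571. Rps6, the small subunit protein that S6 kinases phosphorylate, had 1671.5, 1693.6, 1673.2 and 1564.2 TPM in the Cr1l tumours, against 1647.8, 1884.7 and 1869.0 TPM in the Vec tumours, with a difference of -0.12 and an adjusted p of 0.596 by limma. Its Cr1l values lay within a narrow range apart from Cr1l 4, and Vec 5 lay among them. Several small subunit genes had differences near 0, among them Rps24 (0.002), Rps14 (0.003), Rps27 (-0.01) and Rps13 (-0.02).

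The stalk, which recruits translation factors to the large subunit, held members on both sides. Rplp0, its anchor, had 1972.7, 1956.2, 1804.1 and 1635.5 TPM in the Cr1l tumours, against 2151.7, 1878.6 and 1946.4 TPM in the Vec tumours, and Rplp1 had 4744.8, 5183.9, 4538.6 and 4624.4 TPM in the Cr1l tumours, against 5309.3, 5147.6 and 5103.9 TPM in the Vec tumours. The groups overlapped in both, with differences of -0.11 and -0.12. Rplp2, the partner of Rplp1, had 1592.4, 1556.0, 1691.6 and 1683.1 TPM in the Cr1l tumours, against 1385.7, 1402.4 and 1551.7 TPM in the Vec tumours. All 4 Cr1l tumours lay above all 3 Vec tumours, by little for Cr1l 2 and Vec 7, and the difference was 0.17 (SE 0.11), with an unadjusted p of 0.155 and an adjusted p of 0.453 by limma, beside 0.0286 by the exact permutation test.

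Members with positive differences of like size were Rps21, Rpl36a and Rpl17. Rps21, of the small subunit, had 2414.7, 2737.0, 2504.6 and 2454.6 TPM in the Cr1l tumours, against 1999.1, 2597.9 and 2116.6 TPM in the Vec tumours. Rpl36a, near the exit site of transfer RNA, had 551.2, 480.9, 672.5 and 586.4 TPM in the Cr1l tumours, against 477.4, 566.0 and 469.9 TPM in the Vec tumours. Rpl17, which lines the exit tunnel, had 1094.5, 1224.1, 1368.8 and 1208.7 TPM in the Cr1l tumours, against 1031.2, 1270.8 and 1008.1 TPM in the Vec tumours. In all 3 genes Vec 6 lay above at least 1 Cr1l tumour, so the groups overlapped. Their differences were 0.18, 0.18 and 0.15, each with an adjusted p over 0.05 by limma. All 3 were positive in each of the 16 fits run, the reported one included.

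By level, which TPM allows to be compared between genes, Rplp1 stood first with a mean of 4950 TPM over the 7 tumours. Rpl41, which encodes the smallest ribosomal protein, had a mean of 4123 TPM, with 4074.1, 4259.5, 3889.0 and 3314.0 TPM in the Cr1l tumours, against 3769.5, 5253.3 and 4298.6 TPM in the Vec tumours. Rpl32 had a mean of 4120 TPM, with 4142.6, 4733.8, 3071.8 and 2886.2 TPM in the Cr1l tumours, against 4355.0, 5616.4 and 4037.3 TPM in the Vec tumours. Vec 6 was the 1 tumour in which Rpl32 was the most abundant member, and these 3 genes changed places between tumours (ranks 1 to 3 for Rplp1, 2 to 3 for Rpl41 and 1 to 4 for Rpl32), so their order is not fixed beyond the spread. Rpl36 was the next, with ranks of 4 to 8. Among the abundant members the median level was 1360 TPM in the large and 1813 TPM in the small subunit. The coefficient of variation over the 7 tumours had a median of 11.3%. It was highest for Rpl13 (28.3%), Rpl36 (26.6%) and Rpl32 (22.8%) and lowest for Rps10 (4.35%), Rpl15 (4.61%) and Rps13 (4.66%).

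The differences varied with the base composition of the transcripts and with their level. Over the 76 abundant members, Pearson's r between the difference and the GC content of the transcript (GENCODE M21 annotation) was -0.414 and Spearman's rho -0.361. Between the difference and the log2 of the mean TPM, r was -0.349 over the same genes. The part of level in the relation to GC was not tested. These are correlations across genes of the same 7 libraries, which are not independent replicates. Over all tested genes with a GC value (12583), r between difference and GC was -0.0958. The 25 members of lowest GC (41.3% to 49.5%) had a median difference of -0.09, the next 25 (up to 53.6%) of -0.14 and the 26 of highest GC (53.8% to 60.8%) of -0.22. Large subunit members had an r of -0.634 (43 genes) and small subunit members of -0.155 (30 genes). Per tumour, r between GC and a member's deviation from its mean was -0.197, -0.101, -0.315 and -0.315 in the Cr1l tumours, against 0.284, 0.171 and 0.367 in the Vec tumours, so every Cr1l tumour was negative and every Vec tumour positive. Each deviation is taken from the gene's mean over the same 7 tumours, so opposite signs of the groups largely restate the correlation over the 76 members. Rpl36, Rpl13 and Rpl28 lay at the high end of GC (60.8%, 57.0% and 56.5%), while Rplp2, with 55.0%, had a positive difference. The part of library preparation in this relation was not tested.

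**Figure D5:**
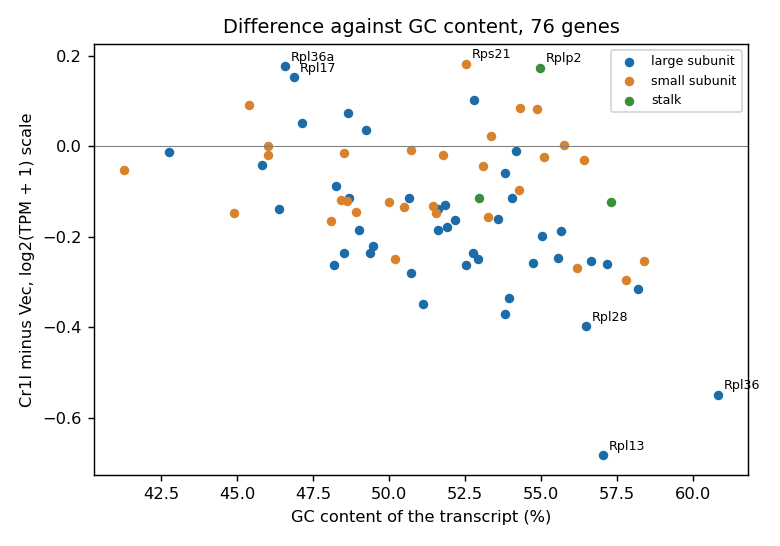
Difference of each abundant member (Cr1l minus Vec, in log2(TPM + 1) units) against the GC content (%) of its transcript, with subunits by colour. Across the 76 genes Pearson's r was -0.414, and Rpl36 and Rpl13 lie at the lower right.

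The low paralogs lay far below their abundant relatives in level. Rpl3l, the form of Rpl3 known from heart and skeletal muscle, had 0.13, 0.11, 0.66 and 0 TPM in the Cr1l tumours, against 1.89, 7.54 and 0 TPM in the Vec tumours. It was thus at 0 in 1 tumour of each group and highest in Vec 6, and its difference of -1.28 had an adjusted p of 0.381 by limma. The 10 skeletal muscle markers summed to 27.3, 14.6, 325.2 and 8.11 TPM in the Cr1l tumours, against 390.0, 1967 and 78.1 TPM in the Vec tumours, highest in Vec 6 as well, and their part in Rpl3l was not tested. Rpl3 itself had 1445.6, 1476.5, 1123.6 and 1115.5 TPM in the Cr1l tumours, against 1492.1, 1431.2 and 1417.5 TPM in the Vec tumours, with overlapping groups and a difference of -0.18. Rps4l had 2.99, 3.15, 14.19 and 12.04 TPM in the Cr1l tumours, against 3.65, 6.09 and 1.33 TPM in the Vec tumours, high in Cr1l 3 and Cr1l 4 alone, with a difference of 0.83 that became -0.06 without those tumours. Its relative Rps4x had a difference of -0.01.

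Rpl39l, known from testis, had 0.13, 1.45, 4.88 and 2.56 TPM in the Cr1l tumours, against 1.42, 1.29 and 0.64 TPM in the Vec tumours, with a difference of 0.40, and Rpl39 had a difference of -0.11. Rpl6l had 8.70, 4.98, 5.22 and 5.48 TPM in the Cr1l tumours, against 6.24, 7.41 and 9.16 TPM in the Vec tumours, and Rpl32l was untested at 0.55, 0, 0 and 0 TPM in the Cr1l tumours, against 0.73, 0.53 and 0 TPM in the Vec tumours. In these 2 genes the groups overlapped, and the difference of Rpl6l was -0.29, beside -0.28 for Rpl6. Rps27l, a paralog of Rps27 that p53 induces, was abundant with 597.5, 674.5, 572.7 and 458.0 TPM in the Cr1l tumours, against 608.6, 642.9 and 643.5 TPM in the Vec tumours. The groups overlapped there too, with a difference of -0.15, beside -0.01 for Rps27. Reads of such paralogs and of the many processed pseudogenes may have been split in the authors' quantification. The 154 pseudogene symbols ending in -ps summed to 0.124%, 0.135%, 0.119% and 0.130% of TPM in the Cr1l tumours, against 0.152%, 0.156% and 0.144% in the Vec tumours. These symbols thus held little of the signal and lay lower in every Cr1l tumour. Pseudogenes under any other symbol were not counted, so the share of all pseudogenes is not known.

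In the authors' deposited table, which rests on a count model, 70 of 81 members had negative and 11 positive log2 fold changes, with a median of -0.20. Over all 28292 genes with a fold change, 12976 were negative and 15316 positive, with a median of 0.08. Over the 18297 genes with an adjusted p, 8745 were negative and 9552 positive, with a median of 0.03. Which group is the numerator was read from the positive sign of Cr1l, since the header is silent on it. Among members, 11 in the authors' deposited table had an unadjusted p under 0.05, all lower (13.6%). Of the 28169 genes with a p-value there, 5.46% were lower and 9.05% higher. That background holds genes of low count and was not matched to the level of the members. Of 80 members with both values, 75 had the same sign in the deposited table and in the TPM fit. Both come from the same 7 libraries.

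Ribosomal proteins whose symbols fall outside the rule did not form a uniform group. Of 7 such genes, 4 had lower means in Cr1l tumours, with a median of -0.02, and 0 had an unadjusted p under 0.05 by limma. Rack1, a scaffold on the head of the small subunit, had 1605.3, 1677.6, 1365.3 and 1230.6 TPM in the Cr1l tumours, against 1727.7, 1852.2 and 1762.3 TPM in the Vec tumours, without overlap (-0.29, adjusted p = 0.362 by limma). Rpsa, also of the small subunit, did not overlap either, with a difference of -0.09. Fau, which encodes a ubiquitin-like protein fused to a small subunit protein, had a difference of 0.03.

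Genes that make ribosomes and use them were described in the same fit, with 0 of them past an adjusted 0.05 by limma. Of 43 ribosome biogenesis genes, 39 had lower means in Cr1l tumours, with a median of -0.32, and 10 (23.3%) were lower at an unadjusted p under 0.05 and 0 higher. Over all genes tested, 44.6% had lower means, and 6.07% were lower and 9.49% higher at that p, which is the background for the lists that follow as well. Nob1, the nuclease that finishes the small subunit RNA, had 33.8, 30.6, 27.9 and 32.3 TPM in the Cr1l tumours, against 49.0, 45.5 and 61.6 TPM in the Vec tumours. Utp4, of the complex that starts processing of the small subunit RNA, had 45.3, 40.2, 30.1 and 24.1 TPM in the Cr1l tumours, against 74.6, 63.1 and 74.6 TPM in the Vec tumours. For both genes the groups did not overlap, and the adjusted p by limma was 0.137 and 0.147. Gnl3, a nucleolar GTPase, had a difference of -0.56, also without overlap. The mean log2(TPM + 1) of the list was 5.92, 5.82, 5.55 and 5.31 in the Cr1l tumours, against 6.09, 5.82 and 6.01 in the Vec tumours, so it was lowest in Cr1l 3 and Cr1l 4, the tumours with the highest macrophage sums, and their part in it was not tested.

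Of 34 translation initiation factors, 30 had lower means, with a median of -0.21, and 7 were lower (20.6%, against 6.07% of all genes) and 1 higher at an unadjusted p under 0.05. The list mean was 7.41, 7.39, 7.08 and 7.01 in the Cr1l tumours, against 7.56, 7.30 and 7.47 in the Vec tumours, again lowest in Cr1l 3 and Cr1l 4. Eif2b2, a subunit of the exchange factor of eIF2, had 96.9, 123.1, 101.5 and 79.0 TPM in the Cr1l tumours, against 157.8, 147.5 and 192.7 TPM in the Vec tumours, a difference of -0.73 (adjusted p = 0.179 by limma). Of 12 elongation factors and other TOP genes, 7 had lower means, with a median of -0.07 and 0 at an unadjusted p under 0.05. Naca, which shields nascent chains, had a difference of -0.31 and Npm1, a nucleolar chaperone, of -0.32. Elongation factor Eef1a1, the most abundant of the list, had a difference of 0.04.

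Of 15 genes of RNA polymerase I, which transcribes ribosomal RNA, and its factors, 10 had lower means, with a median of -0.09, and 2 were lower (13.3%, against 6.07% of all genes) and 1 higher at an unadjusted p under 0.05. Taf1d, a subunit of its selectivity factor, had 58.8, 77.8, 57.8 and 60.1 TPM in the Cr1l tumours, against 132.7, 118.3 and 101.2 TPM in the Vec tumours, a difference of -0.88 with an adjusted p of 0.112 by limma. Of 14 genes of mTOR, S6 kinase and 4E-BP, 10 had lower means, with a median of -0.09, and 2 were higher and 0 lower at an unadjusted p under 0.05, where 9.49% of all genes were higher. Mlst8, a subunit of both mTOR complexes, had 10.50, 11.14, 13.91 and 12.79 TPM in the Cr1l tumours, against 6.30, 8.67 and 8.64 TPM in the Vec tumours, without overlap, a difference of 0.57 with an adjusted p of 0.251 by limma. Of 17 tested p53 targets, 9 had lower means, with a median of -0.005, and 2 were lower (11.8%, against 6.07% of all genes) and 0 higher at an unadjusted p under 0.05. Cdkn1a, the p53-induced inhibitor of the cell cycle, had a difference of -0.005, and Gadd45a, which p53 induces after DNA damage, of -0.66 (adjusted p = 0.219 by limma).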

How the data were processed

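Groups and tumour numbers follow the sample labels. RSEM, DESeq2 and the mm39 build are named in the submitters' processing notes, with versions, aligner and annotation not given in the sources used here. Expression was deposited by the authors as log2(TPM + 1) per gene symbol and tumour, and TPM was recovered by undoing the logarithm. TPM keeps no depth, so no counting error is given. Libraries were made from poly-T selected RNA and did not keep strand, per the labels' protocols, so antisense partners and near-identical copies cannot be separated. The authors also deposited their DESeq2 comparison. Its columns, per the file headers, are the normalized count averaged over tumours (a signal), the log2 fold change with its standard error and Wald statistic (scores), and each gene's p-value before and after adjustment. Of its 28369 identifiers, 27182 matched a symbol in a GRCm38 name table, and all 81 members did.

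Members and gene lists were chosen with earlier results of these data known. The 14954 genes averaging 1 TPM or more were tested with limma 3.58.1 in R 4.3.3 on log2(TPM + 1), pseudocount 1, with group as the term and a variance trend. P-values are two-sided, Benjamini-Hochberg adjusted over all genes tested, with a threshold of 0.05. Differences are Cr1l minus Vec on that scale, which understates changes of low genes. The fit was tested on simulated data. Single genes had an exact permutation test over 35 splits. Sums over members had no test. Transcript starts came from RefSeq (GRCm38.p6; 59 of 81 members), from the first start listed per gene, and GC content from GENCODE M21 as the median over the principal transcripts of a gene (78 of 81). Values per tumour were given for the 8 members of smallest p, the 4 highest, the 4 largest differences each way among abundant members, and fixed paralogs and regulatory members. Rpl6l, Rpl32l and the members named for a difference near 0, and Eef1a1 and Cdkn1a, were chosen after their values were seen. Rpl10l, in the rule for paralogs, was not analysed here, and protein sequences were not used here. Figures used matplotlib 3.10.9. Alternatives were another pseudocount, no filter, no trend, sample weights, median-of-ratios scaling, removal of mitochondrial and globin transcripts, and leaving out tumours.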

Additional observations from a re-analysis of the deposited data

Results flagged for a closer look

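Among 34 values screened for a tumour standing far from the others of its group, 1 met the criterion of a gap that fills most of the group's range. Rps6 was at 1564.19 TPM in Cr1l 4, below the other 3 Cr1l tumours, with a gap of 0.83 of the range. Chance gives such a tumour in about 1 in 20 groups. Cr1l 4 was also the lowest tumour for 46 of the 76 abundant members.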

How the results depend on the processing

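No paired analysis was possible because the tumour numbers are not shared between the groups. The summed share and the ratio of the subunits kept their direction under every alternative run. With tumours left out, the median of the members ran from -0.21 to -0.031, its value nearest 0 being that without Vec 6 and Vec 7. In that fit the spread of the lone Vec 5 is taken to equal that of the Cr1l group. The median of all genes was then -0.028, against 0.05 in the fit reported, so the members no longer stood apart from all genes. With single tumours left out, 53 to 67 members had lower means, and without Vec 6 and Vec 7 47 had, against 64 in the fit reported.

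The count of lower members at an unadjusted p under 0.05 by limma was 5 in the fit reported (6.25%, against 6.07% of all genes). It was 10 with median-of-ratios scaling, where 9.45% of all genes were lower. It was 2 with no filter on low values, 3 with no trend, 3 with arrayWeights and 3 without mitochondrial and globin transcripts. With single tumours or with Cr1l 3 and Cr1l 4 left out, the count was 1 to 5. For these other settings the share of all genes was not counted, so the changes are not shown to be particular to the members. Members without overlap downward numbered 13 to 34 with single tumours left out (16.2% to 42.5%), against 7.31% to 12.1% of all genes. Without Vec 6 and Vec 7 the members did not exceed all genes in this share. Leaving out tumours for this count was an alternative chosen after seeing the data. The authors' deposited table had 1 member past an adjusted 0.05, against 0 by limma. The cause was not tested.

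Of the 29 members followed gene by gene, the sign turned for 10. With arrayWeights Rpl5 had 0.048, Rps27 0.0030 and Rps4x 0.026, and without mitochondrial and globin transcripts Rpl5 had 0.018, Rps27 0.024 and Rps4x 0.017. With tumours left out, singly or as the pairs Vec 6 and Vec 7 or Cr1l 3 and Cr1l 4, the difference ran from -0.25 to 0.014 for Rpl3, -0.24 to 0.13 for Rpl39, -0.33 to 0.83 for Rpl39l, -0.30 to 0.037 for Rpl41, -0.087 to 0.081 for Rpl5, -0.082 to 0.12 for Rps27, -0.23 to 0.0077 for Rps27l, -0.063 to 1.20 for Rps4l, -0.14 to 0.12 for Rps4x and -0.19 to 0.0018 for Rps6. TPM holds no depth, so what read number limits cannot be given.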
